A study of Mus musculus with 8 samples.

Results

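The subject here is the graded difference in chromatin accessibility between Dek knockout and control leukemic progenitors, measured over the regions that were open in every library of both groups. ATAC-seq inserts adapters into open DNA with a transposase, so that peaks of reads mark accessible promoters and enhancers. Union regions were made from the peak lists of the series (chromosomes 1 to 19 and X), and those with a peak in all 6 FL and KO lists were kept. This gave 34313 shared regions of 138385 union regions (24.8%), and 118927 union regions held a peak in at least 1 of the 6 lists. A region's value in a library was the percentile of its −log10 q within that library's own peak list, so that 100 is the strongest peak. The KO minus FL difference of these percentiles, called the shift, was taken inside each cohort and is given in percentile points.

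All 6 libraries came from leukemic granulocyte-macrophage progenitors (L-GMPs, sorted as lineage-negative, Sca-1-negative cells that carry c-Kit, CD16/32 and CD34) of mice with MLL-AF9 leukemia, from reactions of about 5000 cells. Cohort 1 held FL 1 and FL 2, labelled Dekfl/fl, and KO 1 and KO 2, labelled Dekfl/fl,MX1-Cre. Cohort 2 held FL 3, labelled Dek+/+, and KO 3, labelled Dekfl/fl;Tie2-Cre. The MLL-AF9 fusion was therefore present in controls and knockouts alike, the floxed alleles were carried by the controls of cohort 1 only, and the control of cohort 2 lacked them. Mx1-Cre is switched on by interferon signalling, and Tie2-Cre is active in endothelial and blood cells. The peak names inside the KO 1 and KO 2 lists carry the numbers 2 and 3, and the libraries are called here by their titles. Cohort, Cre line and control genotype go together in this design and cannot be told apart. The labels do not say whether the libraries of a group came from separate animals, so the spread between them may be technical, and cohort 2 holds 1 library of each genotype.

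DEK is a nuclear protein that binds DNA and histones, acts as a chaperone of a histone H3 variant and is phosphorylated by casein kinase. The series addresses whether DEK sustains leukemia stem cells through PBX3, a homeodomain partner of HOX proteins. MLL-AF9 keeps genes of the progenitor program such as Hoxa9, Meis1 and Mef2c active, and myeloid maturation is driven by factors such as C/EBP proteins, PU.1 (Spi1), Gfi1 and Irf8.

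Annotated start sites lay in 20 regions that were higher and 7 that were lower in KO in both cohorts, by the 10-point rule given further on. The upstream sequences of some of these starts are shown as a description, without a test. Each is the 250 bases upstream of an annotated start in the RefSeq table of GRCm38.p6, written along the gene's strand, and capitals mark matches to the short motifs described further on. Grb14, Mmp25 and Luzp1 were higher in the KO libraries and Fam124a and Spata17 lower; the Spata17 start shares its region with that of Gpatch2. They were chosen after their values were seen.
Grb14, chr2:65022767-65023016, minus strand: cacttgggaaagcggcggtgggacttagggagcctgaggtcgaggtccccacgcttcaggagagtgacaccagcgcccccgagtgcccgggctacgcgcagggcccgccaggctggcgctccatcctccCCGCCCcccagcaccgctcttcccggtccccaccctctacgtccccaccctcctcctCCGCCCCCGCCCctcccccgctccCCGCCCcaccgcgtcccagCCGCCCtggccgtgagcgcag
Mmp25, chr17:23645270-23645519, minus strand: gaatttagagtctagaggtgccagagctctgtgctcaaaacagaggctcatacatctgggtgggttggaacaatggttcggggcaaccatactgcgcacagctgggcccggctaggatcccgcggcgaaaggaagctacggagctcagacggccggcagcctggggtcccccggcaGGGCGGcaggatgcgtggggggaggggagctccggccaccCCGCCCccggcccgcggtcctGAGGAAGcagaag
Luzp1, chr4:136469511-136469760, plus strand: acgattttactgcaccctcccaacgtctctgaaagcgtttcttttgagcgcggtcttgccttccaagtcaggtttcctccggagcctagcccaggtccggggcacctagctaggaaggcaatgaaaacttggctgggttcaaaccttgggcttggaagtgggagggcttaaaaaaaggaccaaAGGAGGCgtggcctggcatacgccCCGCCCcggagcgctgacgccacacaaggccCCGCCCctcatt
Fam124a, chr14:62555487-62555736, plus strand: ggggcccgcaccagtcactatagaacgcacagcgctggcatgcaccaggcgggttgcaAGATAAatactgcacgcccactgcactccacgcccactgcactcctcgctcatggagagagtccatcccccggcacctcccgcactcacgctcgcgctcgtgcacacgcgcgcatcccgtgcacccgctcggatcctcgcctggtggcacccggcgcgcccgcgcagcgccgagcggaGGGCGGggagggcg
Spata17, chr1:187215447-187215696, minus strand: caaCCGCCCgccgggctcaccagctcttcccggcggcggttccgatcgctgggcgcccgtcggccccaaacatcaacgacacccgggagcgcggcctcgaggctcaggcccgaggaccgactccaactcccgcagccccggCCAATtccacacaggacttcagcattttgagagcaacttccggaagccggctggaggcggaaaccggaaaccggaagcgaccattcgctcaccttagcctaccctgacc

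Grb14 encodes an adaptor that binds the insulin receptor, Mmp25 a membrane-anchored metalloproteinase of neutrophils, and Luzp1 a leucine zipper protein of the actin cytoskeleton. The Grb14 region (chromosome 2, 65022117 to 65023317) stood at list percentiles of 8.24 and 12.5 in FL 1 and FL 2 against 43.7 and 54.0 in KO 1 and KO 2, with 33.6 in FL 3 against 63.0 in KO 3. For Mmp25 (chromosome 17, 23644566 to 23645529) the values were 27.4 and 19.9 in FL 1 and FL 2 against 51.3 and 61.8 in KO 1 and KO 2, 43.2 in FL 3 and 68.8 in KO 3. For Luzp1 (chromosome 4, 136469367 to 136470935) they were 47.6 and 50.5, then 66.5 and 76.6, with 44.6 in FL 3 and 67.9 in KO 3. In these 3 regions every KO library was above every FL library of its cohort, as the rule that picked them requires. Fam124a, a gene of little known function, was lower in each KO library (chromosome 14, 62555244 to 62556214): 49.4 and 61.5 in FL 1 and FL 2 against 13.9 and 42.6 in KO 1 and KO 2, 70.2 in FL 3 and 47.6 in KO 3. The region at the paired starts of Gpatch2 and Spata17 (chromosome 1, 187215127 to 187216047) had 44.0 and 34.4 in FL 1 and FL 2 against 13.0 and 22.9 in KO 1 and KO 2, and 73.7 in FL 3 against 59.5 in KO 3.

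The 6 lists differed in length, which matters for any percentile. The FL lists of cohort 1 held 51510 and 54887 peaks and its KO lists 56245 and 74026, beside 91586 for FL 3 and 93041 for KO 3, and list length is the only sign of depth, since read depth is unknown. Spearman's rho of percentiles over the shared regions was 0.843 to 0.925 for libraries of the same cohort and 0.755 to 0.799 for libraries of different cohorts, so libraries were more alike by cohort than by genotype. Of the L-GMP markers 8 of 9 (all but Hoxa9) held a peak over the annotated start in all 6 lists. Among markers of other cells, 2 of the 3 with a start in the table used for monocytes (Ly86, Klf4) and 2 of 5 for neutrophils (Camp, S100a8) did so, and none of the 20 with a start there for endothelium, stroma, B, T and NK or erythroid cells. Of these 20, Kdr and Eng held such a peak in 3 lists, Cxcl12 and Epor in 4, Tie1 in 1 and the others in none. A change of cell composition in the sorted fraction and a change of accessibility per cell cannot be told apart in these bulk libraries.

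A longer list holds more weak peaks below the shared regions, and the mean list percentile of the shared regions was itself higher in KO than in FL in cohort 1, at 69.1 against 63.6, a mean shift of 5.46 points (SD over regions 12.01). In cohort 2, where the lists were of similar length, the means were 76.3 in KO and 76.9 in FL, a shift of −0.62 (SD 9.13). A second scale was therefore used beside the first: the percentile of a region among the 34313 shared regions only, whose mean is the same in every library. On this scale the median shift was −0.14 in cohort 1 and −0.057 in cohort 2. Shifts of at least 10 points were common on it, in 34.7% of regions in cohort 1 and 30.8% in cohort 2.

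The main question was whether the shifts of the cohorts went in the same direction. They did not do so more often than not: 15950 of 34313 shared regions (46.5%) had the same sign in both cohorts on the list percentile and 16105 (46.9%) on the scale of shared regions, against 50% for an even division. On the scale of shared regions 22.8% were higher in KO in both cohorts and 24.1% lower in both, while 26.2% were higher in cohort 1 and lower in cohort 2, and 26.8% the reverse. Across regions, which share the same 6 libraries and are not replicates, Pearson's r between the cohorts' shifts was −0.081 on the list percentile and −0.073 on the scale of shared regions. Counting regions with the same sign and no overlap in cohort 1, 16.2% were higher and 3.44% lower on the list percentile, and 9.88% and 10.2% among shared regions. In an exact permutation test that exchanged the FL and KO labels inside each cohort, the same-sign share gave a two-sided p of 0.333 on both scales, which is also the smallest p this test can give, because exchanging FL 3 with KO 3 mirrors the share.

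**Figure D1:**
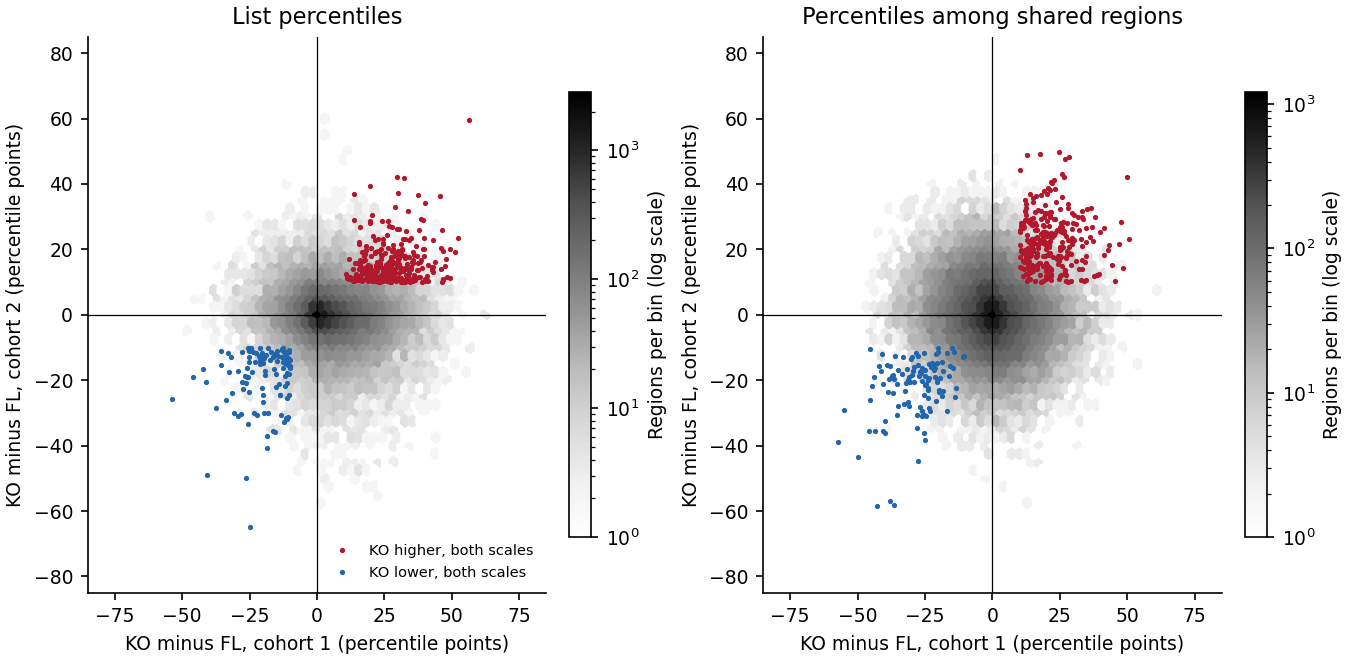
KO minus FL shift of the 34313 shared regions, cohort 1 on the horizontal and cohort 2 on the vertical axis, in percentile points, on the list percentile (left) and among shared regions (right). Grey shows regions per bin on a log scale, and coloured points are the 299 regions called higher and the 114 called lower on both scales; the cloud has no upward slope (r = −0.081 and −0.073).

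A region was then called when its shift was at least 10 points in the same direction in each cohort and, in cohort 1, both KO libraries lay beyond both FL libraries. On the list percentile 707 regions (2.06%) were called higher and 191 (0.557%) lower. On the scale of shared regions the counts were 788 higher (2.3%) and 708 lower (2.06%), so higher calls were 78.7% of all calls on the first scale and 52.7% on the second. With lists shortened to equal length 48.0% of calls were higher, and without KO 2 47.8% were. The remaining description is of the regions called on both scales, 299 higher (0.871%) and 114 lower (0.332%), near 278 and 104 protein-coding genes. The regions nearest the threshold had a smallest shift of 10.01 (Il7r) and 10.04 (Il17rd) inside it and 9.996 (Babam2) and 9.992 (Rptor) outside it for higher calls, and −10.01 (Mamdc2) and −9.96 (Cdk17) on either side for lower calls.

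These counts were not the highest that exchanged labels gave. The 413 regions called on both scales compared with 199 to 627 under the other exchanges of labels inside the cohorts (exact permutation test, one-sided p = 0.333; the smallest it can give is 0.167). For higher calls alone the one-sided p was 0.167 and for lower calls alone 0.667, where 0.0833 is the smallest. With FL 3 taken as the knockout and KO 3 as the control, 475 regions were higher and 152 lower. This was more than with the labels as given. The exchanges that mixed FL and KO inside cohort 1 gave 264, 207, 248 and 199 calls, fewer than the 413. The counts on single scales behaved alike, with 898 calls against 550 to 1403 on the list percentile and 1496 against 807 to 2049 among shared regions (both one-sided p = 0.333 in the exact permutation test). Leaving out 1 library of cohort 1, which also leaves fewer values that must not overlap, gave 548 higher and 308 lower without FL 1, 503 and 195 without FL 2, 518 and 125 without KO 1, and 420 and 428 without KO 2. The regions named below are therefore a description of these 6 libraries, chosen by their values and given without a test.

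**Figure D2:**
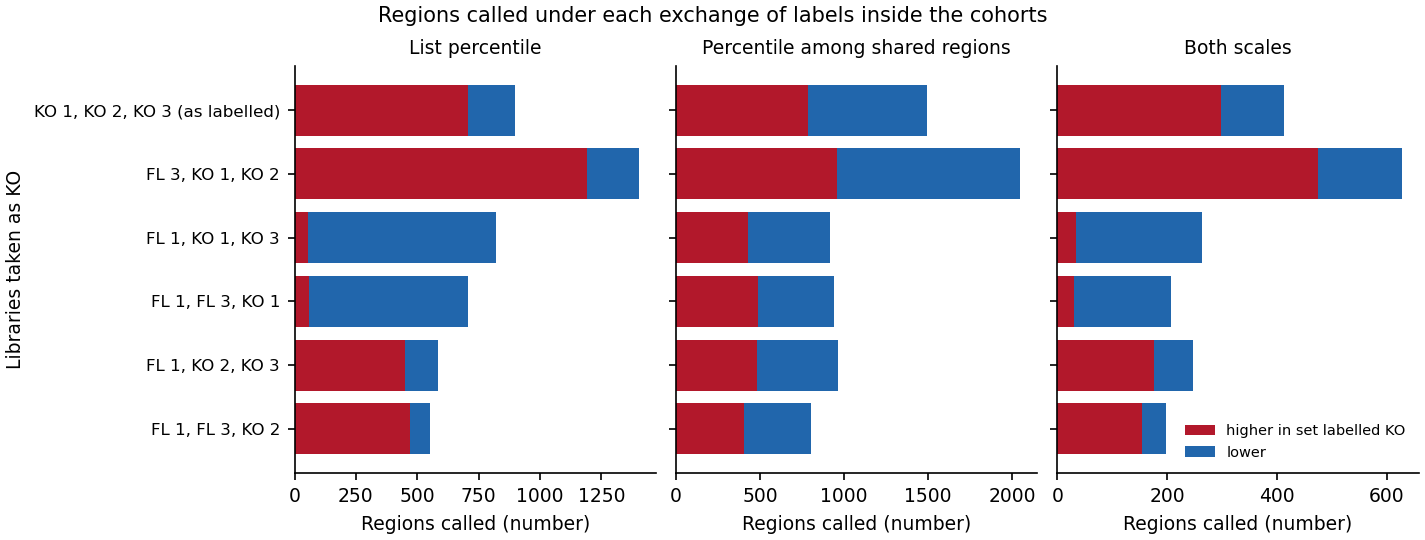
Number of regions called higher (red) and lower (blue) when different libraries are taken as KO, with labels exchanged only inside a cohort, for each scale and for calls made on both. The true labelling (top bar) gave 413 calls on both scales and the exchange of FL 3 with KO 3 gave 627.

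Called regions were ranked by the smaller of their 2 list shifts. The first among the higher ones lay 63471 bp from the predicted gene Gm11780 (chromosome 4, 4464010 to 4464639), at 15.9 and 12.5 in FL 1 and FL 2 against 55.96 and 85.2 in KO 1 and KO 2, 9.8 in FL 3 and 69.3 in KO 3. Predicted genes and regions beyond 100 kb of a gene were left out of the naming. The first of the named regions higher in KO lay 31140 bp from Vegfa, which encodes the secreted growth factor of blood vessels (chromosome 17, 46063173 to 46064030). It stood at list percentiles of 31.3 and 42.9 in FL 1 and FL 2 against 83.7 and 81.4 in KO 1 and KO 2, 30.8 in FL 3 and 67.1 in KO 3. The shifts were 45.5 and 36.3 points, or 50.6 and 23.3 among shared regions. The genotypes did not overlap in either cohort, as the call requires. Of the 7 shared regions assigned to Vegfa this was the only one called. The region over the Vegfa start site (46030540 to 46033007) shifted by 13.6 points in cohort 1 and 1.5 in cohort 2 among shared regions.

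Near Brd7, a bromodomain subunit of a SWI/SNF remodelling complex (chromosome 8, 88369168 to 88369770, 7096 bp outside the gene), FL 1 and FL 2 stood at 26.2 and 37.4, KO 1 and KO 2 at 62.5 and 66.0, FL 3 at 26.5 and KO 3 at 68.4. Near Elk3, an ETS-family transcription factor (chromosome 10, 93374985 to 93375740), the percentiles were 50.8 and 56.8 in the controls of cohort 1, 75.6 and 84.4 in its knockouts, 45.3 in FL 3 and 74.1 in KO 3. Inside the homeobox gene Cux2 (chromosome 5, 122026407 to 122027151) they were 18.8 and 24.4, 37.9 and 64.3, 46.5 and 72.7 in the same order. In these 3 regions the KO values lay above the FL values of the same cohort, as the call requires. Elk3 had nearly the same shift among shared regions in both cohorts, 30.3 and 30.4 points.

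The region inside Mthfd1l, a mitochondrial enzyme of folate metabolism (chromosome 10, 4107585 to 4108121), stood at 58.6 and 33.3 in FL 1 and FL 2 against 65.4 and 81.8 in KO 1 and KO 2, 59.1 in FL 3 and 86.0 in KO 3. Inside Hlcs, which attaches biotin to carboxylases (chromosome 16, 94148039 to 94148496), the controls were at 35.6, 26.0 and 33.1 and the knockouts at 70.8, 69.6 and 61.9. Inside Tspan32, a tetraspanin of blood cells (chromosome 7, 143009950 to 143010437), the values were 52.3 and 64.9 in FL 1 and FL 2 against 82.9 and 87.6 in KO 1 and KO 2, 31.8 in FL 3 and 59.0 in KO 3. At Hlcs all 3 knockouts were above all 3 controls by more than 20 points on the list percentile, though list lengths differ between the cohorts. Among shared regions KO 3 stood at 19.4 and FL 1 at 16.7. Other regions named by rank lay in or near Armc2, Tpp2, Spats2, Spink13 and Cmip, with list shifts of 28.8 to 33.7 points in cohort 1 and 26.1 to 42.3 in cohort 2.

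The first named region lower in KO lay inside Ndst3, an enzyme that modifies heparan sulfate (chromosome 3, 123652911 to 123653313), at 70.1 and 62.7 in FL 1 and FL 2 against 14.8 and 36.7 in KO 1 and KO 2, 53.7 in FL 3 and 4.7 in KO 3. Its list shifts were −40.6 and −49.0, but among shared regions the shift in cohort 2 was −10.6. A second heparan sulfate enzyme gene, Hs2st1, had the region 73433 bp away at 57.7 and 54.1 in FL 1 and FL 2 against 5.5 and 39.0 in KO 1 and KO 2, 71.2 in FL 3 and 45.2 in KO 3. Knockout values were below control values of the same cohort in both regions, as the call requires.

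Inside Nsd3, a histone methyltransferase gene (chromosome 8, 25653865 to 25654321), the percentiles were 80.8 and 83.5 in FL 1 and FL 2 against 29.2 and 73.4 in KO 1 and KO 2, 72.1 in FL 3 and 42.2 in KO 3. Inside Ss18, which encodes a subunit of BAF remodelling complexes (chromosome 18, 14640000 to 14640573), they were 58.5 and 62.7, 33.7 and 36.7, 61.6 and 38.0. KO 1 was far below KO 2 at Nsd3, while the knockouts of cohort 1 were close together at Ss18. Near Nfe2l1, a transcription factor of proteasome genes (chromosome 11, 96837321 to 96837731), FL 1 and FL 2 were at 64.1 and 66.0, KO 1 and KO 2 at 18.6 and 56.0, FL 3 at 70.1 and KO 3 at 49.5.

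The region 13376 bp from Adcyap1r1, the receptor of the neuropeptide PACAP (chromosome 6, 55437538 to 55438449), had the lowest shift of cohort 1 among the named regions at −53.7, from 70.8 and 65.6 in FL 1 and FL 2 to 17.3 and 11.7 in KO 1 and KO 2, with 84.9 in FL 3 and 59.2 in KO 3. Inside Ccbe1, a secreted factor of lymphatic vessel growth (chromosome 18, 66236084 to 66236765), the lowest named shift of cohort 2 was found, −65.0, from 84.7 in FL 3 to 19.7 in KO 3, beside 76.7 and 75.8 in FL 1 and FL 2 against 41.5 and 61.0 in KO 1 and KO 2. Gng2 (a G protein subunit), Nyap2, Adgrv1 (an adhesion receptor), Vmn2r26 (a vomeronasal receptor) and Ccdc148 had list shifts of −23.5 to −31.6 in cohort 1 and −21.0 to −49.8 in cohort 2.

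**Figure D3:**
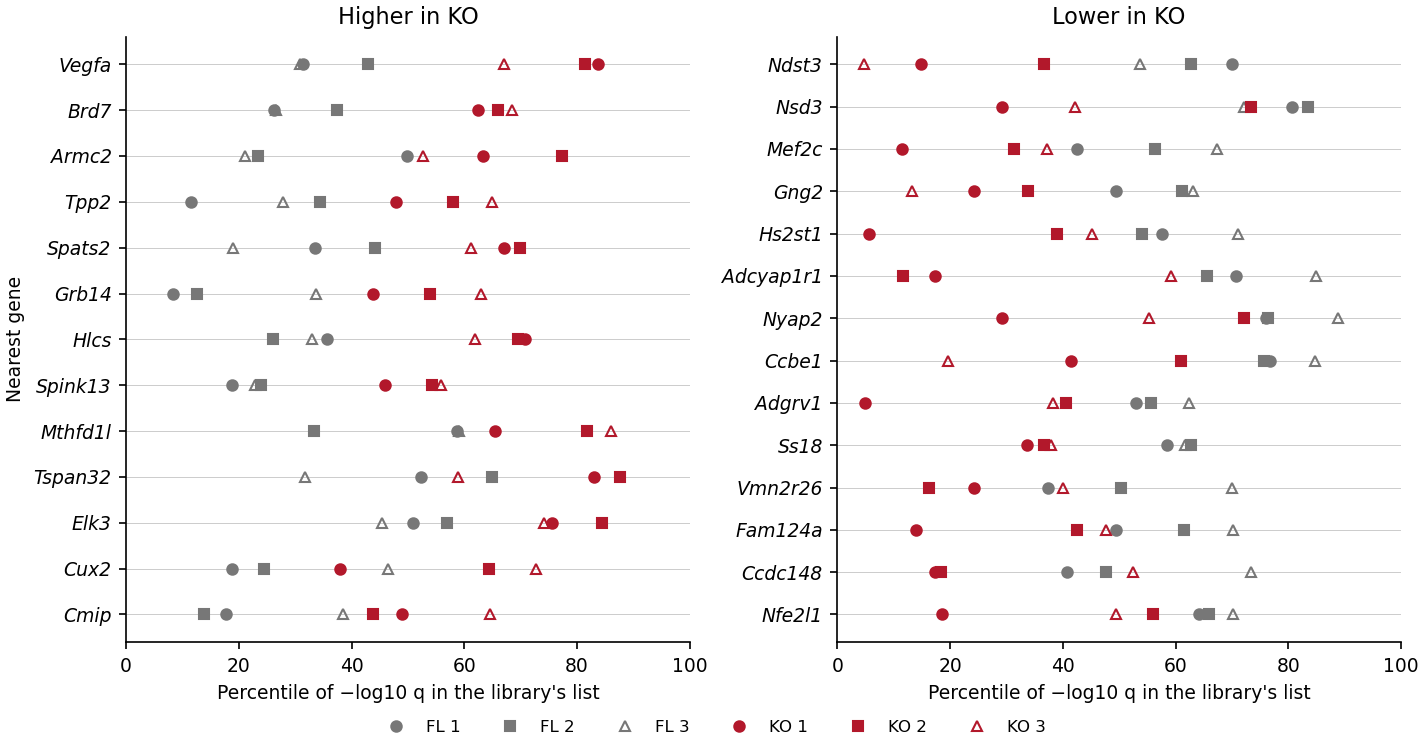
List percentile (horizontal axis, 0 to 100) of each named region in each library, grey for FL and red for KO, filled symbols for cohort 1 and open triangles for cohort 2. Within each cohort the KO symbols lie to the right of the FL symbols on the left panel and to the left on the right panel, as the call requires; between cohorts the levels differ.

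The genes that the study centres on were examined whatever their values, by their strongest shared region. Dek itself, the targeted gene, held 1 shared region (chromosome 13, 47104867 to 47106804), at 75.6 and 78.4 in FL 1 and FL 2 against 65.7 and 73.1 in KO 1 and KO 2, 82.2 in FL 3 and 85.4 in KO 3. The knockouts were below the controls in cohort 1 by 7.7 points and above in cohort 2 by 3.2, or −20.3 and 7.8 among shared regions. Ranked by fold enrichment the region was lower in both, with shifts of −10.5 and −4.0. Which part of the gene was removed is not in the labels, so this region may lie outside it and then checks nothing about the deletion.

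No region of the HOX-pathway genes examined was called. The strongest Pbx3 region (chromosome 2, 34371079 to 34373416, 738 bp outside the gene) stood at 98.4 and 98.3 in FL 1 and FL 2 against 94.3 and 98.7 in KO 1 and KO 2, 98.8 in FL 3 and 97.2 in KO 3. In the limma fit with cohort and genotype the KO minus FL estimate was −1.7 points (SE 0.98, adjusted p = 0.746). The Hoxa9 region (chromosome 6, 52225762 to 52226575) stood at 82.5 and 72.6 in FL 1 and FL 2 against 61.7 and 69.0 in KO 1 and KO 2, but at 70.0 in FL 3 and 67.6 in KO 3 (limma estimate −8.9, SE 7.3, adjusted p = 0.824). This region was lower in both cohorts without overlap in cohort 1, by 12.2 and 2.3 points, but ranked by fold enrichment its shift in cohort 2 was 10.4, the opposite direction. The other Hoxa9 region (52221272 to 52222341) was higher in both cohorts, by 10.98 and 1.9 points. At Meis1, which encodes the HOXA9 cofactor, the strongest region (chromosome 11, 18924536 to 18925624) stood at 91.0 and 85.6 in FL 1 and FL 2 against 83.8 and 92.1 in KO 1 and KO 2, 97.6 in FL 3 and 97.1 in KO 3, and the genotypes overlapped in cohort 1. On the scale of shared regions none of the 4 Pbx3 regions was higher in both cohorts and 1 was lower in both. Of the 6 Meis1 regions 3 were lower in both and none higher. Over all shared regions 22.8% were higher in both and 24.1% lower in both. No Pbx3, Hoxa9 or Meis1 region was called, beside 0.871% of all shared regions called higher and 0.332% lower. Among so few regions the lack of a call says little.

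Mef2c, Cdk6 and Myc each held 1 region called lower among several that were not. Mef2c encodes a transcription factor of the MLL-AF9 program, and its called region (chromosome 13, 83597187 to 83598053) stood at 42.6 and 56.4 in FL 1 and FL 2 against 11.5 and 31.3 in KO 1 and KO 2, 67.4 in FL 3 and 37.1 in KO 3. The strongest Mef2c region (83571765 to 83572729) stayed between 94.6 and 96.8 in all 6 libraries. Inside Cdk6, a cell cycle kinase gene (chromosome 5, 3474518 to 3475027), the percentiles were 74.6 and 76.1 in FL 1 and FL 2 against 48.5 and 65.1 in KO 1 and KO 2, 73.5 in FL 3 and 36.4 in KO 3. The Myc region 9463 bp outside the gene (chromosome 15, 61999562 to 62000027) stood at 88.7 and 92.9, 73.1 and 87.7, 79.5 and 68.7 in the same order, with list shifts of −10.4 and −10.9 (limma estimate −10.6, SE 4.4, adjusted p = 0.688). On the scale of shared regions 4 of 16 Cdk6 regions, 3 of 10 Mef2c regions and 2 of 5 Myc regions were lower in both cohorts. The counts higher in both were 2, 1 and 1. Over all shared regions 24.1% were lower in both and 22.8% higher in both, and 0.332% were called lower.

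By their strongest regions, regulators of myeloid maturation did not all move in the same direction. The strongest regions of Cebpa and Spi1, which encode C/EBP alpha and PU.1, shifted by 0.97 and 6.9 points in cohort 1 and by −1.2 and 0.54 in cohort 2. That of Cebpe, a C/EBP factor of late granulocytes (chromosome 14, 54705678 to 54706352), was lower in cohort 1 (78.2 and 73.0 in FL 1 and FL 2 against 46.1 and 67.2 in KO 1 and KO 2) and higher in cohort 2 (70.8 in FL 3, 76.8 in KO 3). The other Cebpe regions were higher in both cohorts on the list percentile, by 11.5 and 5.0 points at 54706497 to 54707198 and by 5.7 and 9.1 at 54711881 to 54713414. Among shared regions the latter shifted by −2.8 in cohort 1. The strongest regions of Gfi1, a repressor needed for granulocytes, and Irf8, a factor of monocytes, were higher in cohort 1 by 17.5 and 6.1 points and by 0.39 and 0.44 in cohort 2. Mx1, whose promoter drives the Cre of cohort 1, stood at 69.0 and 67.1 in FL 1 and FL 2 against 95.4 and 95.5 in KO 1 and KO 2, 70.5 in FL 3 and 79.96 in KO 3 (chromosome 16, 97462591 to 97463760; estimate 21.4, SE 5.0, adjusted p = 0.657 in the limma fit). Ranked by fold enrichment the Mx1 shift was 13.7 in cohort 1 and −5.3 in cohort 2, so the direction in cohort 2 turned. Whether reads of the Cre transgene's promoter contribute in cohort 1 was not tested. Over all 12 of these genes the adjusted p in the limma fit lay between 0.657 and 0.988.

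Regions around Dek on chromosome 13 were looked at after the values were seen, so their counts carry no test. Within 1 Mb of Dek 3 of 33 shared regions (9.09%) were called higher on both scales, against 0.871% of all shared regions, and none lower. Cap2, which encodes an actin-regulating protein, held 2 of them: at 46521182 to 46521946 the values were 37.3 and 34.4 in FL 1 and FL 2 against 73.4 and 69.7 in KO 1 and KO 2, 82.4 in FL 3 and 92.7 in KO 3, and at 46619400 to 46620547 they were 33.6 and 50.3, 64.4 and 67.2, 57.1 and 85.9. The third lay near Rbm24, an RNA-binding protein gene (46450757 to 46451452), at 40.1 and 59.3, 79.3 and 78.5, 58.0 and 76.8. All 3 lie on the same side of Dek on chromosome 13. Their knockout values were above the control values of the same cohort, as the call requires. Within 2 Mb the counts were 4 higher and 2 lower of 76, with Gmpr higher and Atxn1 and Id4 lower, and within 10 Mb 8 higher and 2 lower of 477. The median shift within 1 Mb was −0.62 in each cohort among shared regions, so the neighbourhood as a whole was not higher. Whether sequence around the floxed allele bears on these regions was not tested.

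**Figure D4:**
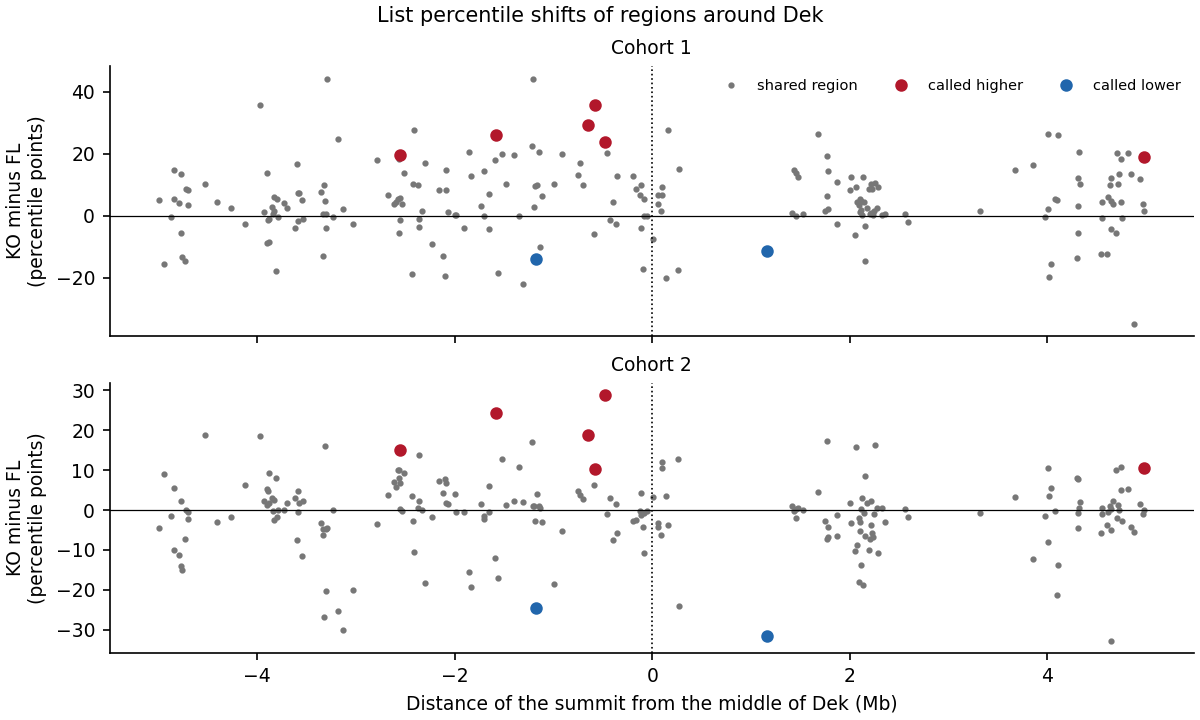
List percentile shift of each shared region (vertical axis, percentile points) against the distance of its summit from the middle of Dek (horizontal axis, Mb), cohort 1 above and cohort 2 below. Red and blue points are regions called higher and lower on both scales; 3 higher ones lie within 1 Mb.

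Gene lists were described by counts and medians on the scale of shared regions. Of the 186 shared regions of the MLL-AF9 program none was called higher and 2 lower (Mef2c and Cdk6), beside 0.871% and 0.332% of all shared regions. The HOX and TALE homeobox list, which holds the partners of HOXA9, had no call in 30 regions, with median shifts of −4.4 in cohort 1 and 2.8 in cohort 2. Chromatin partners of MLL and DEK had none in 55, with medians of −2.5 and 1.8, and stem and progenitor genes none in 138, with medians of −2.2 and 0.66. In these 3 lists the medians of the cohorts had opposite signs.

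Myeloid and signalling lists held a few called regions. The C/EBP and granulocyte list had 2 higher of 70: near Cxcr2, the chemokine receptor of neutrophils (chromosome 1, 74166734 to 74167652), with 3.6 and 21.5 in FL 1 and FL 2 against 32.7 and 60.5 in KO 1 and KO 2, 57.5 in FL 3 and 80.3 in KO 3, and a second region of Gfi1 (chromosome 5, 107705526 to 107706606), with 28.2 and 11.3, 36.1 and 70.9, 67.4 and 78.9. The monocyte list had 1 of 78, inside Zbtb46, a dendritic cell factor gene, with list shifts of 27.6 and 12.8. Near Socs3, a feedback inhibitor of cytokine signalling (chromosome 11, 117954037 to 117954490), the percentiles were 66.1 and 43.0, 78.1 and 79.9, 62.3 and 85.4, and the kinase gene Jak2 had list shifts of 29.0 and 14.1; these were 2 of 137 regions of cytokine receptor and feedback genes. Gadd45a (list shifts 35.2 and 16.3), a stress-response gene, was 1 of 62 in the apoptosis and p53 list, Il7r (13.6 and 36.8), a lymphoid cytokine receptor, 1 of 31 in the lymphoid list, and Ywhaz (12.1 and 11.7) 1 of 43 housekeeping regions. Of immediate early and AP-1 genes 1 of 107, the Myc region, was called lower. Each of these lists held 1 or 2 called regions, too few to set against the share over all shared regions.

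The other lists, interferon response (43 regions), cell cycle and replication (79), erythroid and megakaryocyte (22) and endothelium and stroma (33), had no call. On the scale of shared regions, none of 43 interferon regions was higher in both cohorts without overlap in cohort 1, and 4 were lower. Over all shared regions the shares were 9.88% higher and 10.2% lower. The 15 lists ran from 0% (interferon) to 17.9% (monocyte and macrophage) higher, and from 6.67% (HOX and TALE) to 31.8% (erythroid and megakaryocyte) lower. Mx1 and Mx2 are not among the protein-coding genes of the table and were not counted in the interferon list. The Mx1 region was higher without overlap on the scale of shared regions. On the list percentile, regions of Irf1, Isg20 and Oas3 were higher without overlap. At most 3 genes of a list were named in each direction, so these names are not a count. Over all shared regions 16.2% were higher in this way on the list percentile, where the mean shift of cohort 1 was 5.46 points. Across the 15 lists the medians ranged from −4.4 to 3.1 in cohort 1 and from −1.7 to 2.8 in cohort 2, and in 6 lists both had the same sign.

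**Figure D5:**
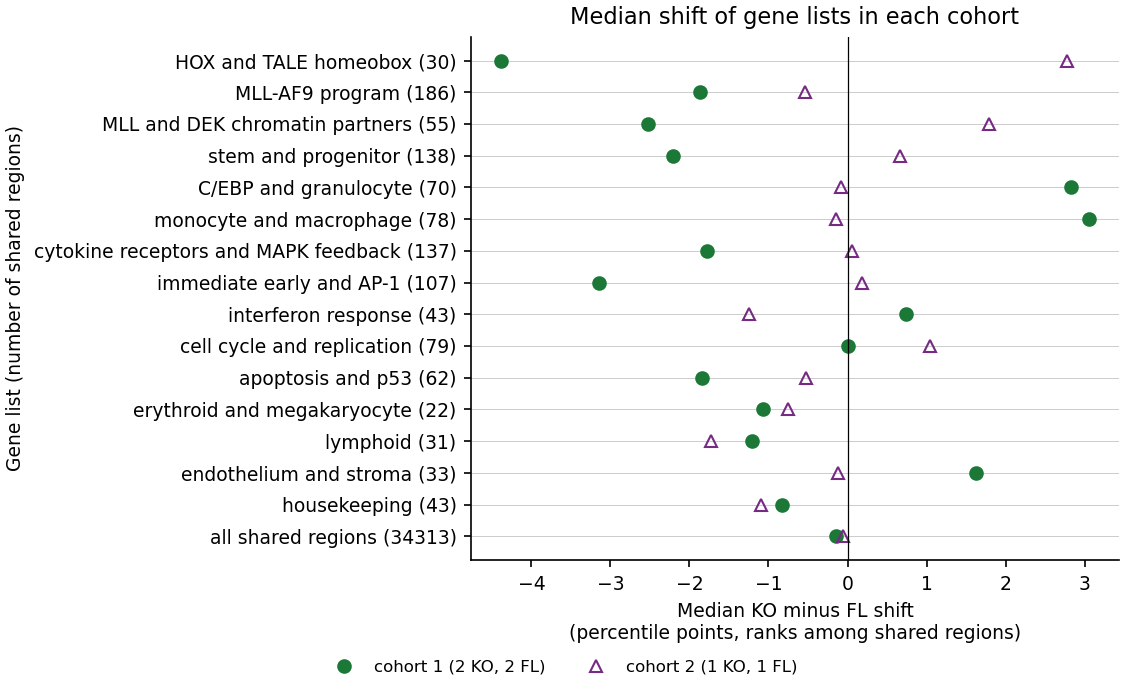
Median KO minus FL shift of each gene list (horizontal axis, percentile points among shared regions), filled circles for cohort 1 and open triangles for cohort 2, with the number of shared regions in brackets. The cohorts' medians lie on the same side of 0 in 6 of 15 lists.

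In the limma fit across all shared regions, with cohort and genotype as terms, none of 34313 regions (0.0%) passed an adjusted p of 0.05, with a smallest adjusted p of 0.657. At an unadjusted p under 0.05 there were 2205 regions higher in KO and 223 lower on the list percentile, and 1416 and 1217 among shared regions. The median standard error of a region's estimate was 7.44 points, so a shift of 10 points is of the order of its error. Averaging the shared regions of each of 13466 genes lowered the median standard error to 5.50 points. Again no gene (0.0%) passed in the limma fit, the smallest adjusted p being 0.172. At an unadjusted p under 0.05, 803 genes were higher and 67 lower on the list percentile. Among shared regions the counts were 468 and 452. No region or gene passed either when the fit assumed no trend of variance with level, whereas with normal scores in place of percentiles 14 genes and no region passed. Leaving out single libraries gave 0 or 1 region. For genes it gave 17 without FL 1, 11 without FL 2 and none without KO 1 or KO 2. Without FL 3 it gave 60 genes and without KO 3 65, and in both fits the genotype estimate rests on cohort 1 only.

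A test of whether the shift differed between the cohorts (limma, interaction of cohort and genotype) called 1 region of 34313 (0.00291%), inside Mid1, a ubiquitin ligase gene on the X chromosome; its shift was 10.1 points in cohort 1 and −48.6 in cohort 2.

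Of the 4194 genes with at least 3 shared regions, 46.4% had a same-sign mean shift on the list percentile and 49.2% among shared regions. The highest by the smaller shift was Inpp4b, a phosphoinositide phosphatase gene, whose 3 regions averaged 53.2 and 71.7 in FL 1 and FL 2 against 82.95 and 87.1 in KO 1 and KO 2, 40.9 in FL 3 and 58.0 in KO 3 (limma estimate 20.8, SE 6.5, adjusted p = 0.578). Its region at chromosome 8, 81756718 to 81757142, had list shifts of 45.6 and 22.1, although its shift in cohort 2 was 3.6 among shared regions. The one at 81806742 to 81807159 had 13.2 and 26.6, with 6.4 in cohort 2 among shared regions, and its genotypes overlapped in cohort 1. No Inpp4b region was called. Spink2, a protease inhibitor gene, averaged 34.5 and 30.2 in FL 1 and FL 2 against 40.4 and 58.2 in KO 1 and KO 2, 50.3 in FL 3 and 67.3 in KO 3 over 4 regions. Tbata, Arhgef40 and Pdgfa followed, with mean list shifts of 13.9 to 16.3 in cohort 1 and 11.8 to 18.3 in cohort 2; Arhgef40 overlapped between genotypes in cohort 1.

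The lowest gene was Fam111a, a protease gene linked to DNA replication, at means of 65.7 and 71.6 in FL 1 and FL 2 against 49.9 and 62.7 in KO 1 and KO 2, 75.8 in FL 3 and 64.4 in KO 3 over 3 regions. Its strongest region, over the start site, did not share this, with 94.1 and 94.6 in FL 1 and FL 2 against 94.3 and 94.7 in KO 1 and KO 2, 91.9 in FL 3 and 92.6 in KO 3. Grsf1, an RNA-binding protein gene of mitochondria, showed the same division between a start region that hardly moved (list shifts −0.13 and 2.9) and a region 12850 bp away that was called lower (−20.1 and −24.4). The mean of Grsf1 over its 3 regions overlapped between genotypes in cohort 1, and so did that of Kcnip1. Tmem30b, Kcnip1, Lmbrd1 and Sncaip completed the lower group with mean list shifts of −7.1 to −12.4 in cohort 1 and −7.6 to −13.5 in cohort 2.

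Features of the called regions that the rule did not name are given beside those of all shared regions. A start site lay in 20 of 299 higher regions (6.69%) and in 7 of 114 lower regions (6.14%), against 24.5% of all shared regions. Their median widths were 692 bp and 682.5 bp, against 864 bp. Regions inside genes made up 52.8% of the higher and 56.1% of the lower set, against 52.98% of all. The median of the mean list percentile over the 6 libraries was 88.6 for shared regions with a start site and 65.8 for those without. Of the 12066 regions whose mean list percentile was at least 80 only 5 were called higher and 1 lower, while of the 8697 between 40 and 60 it was 168 (1.93%) and 64 (0.736%). A percentile near the top leaves no room for a rise of 10 points, so the scale fixes part of this. Whether the start-site share differs beyond the level of the regions was not tested. The authors' fold enrichment, ranked in the same way, shifted in the same direction in both cohorts as −log10 q in 298 of 299 higher and 112 of 114 lower regions. Over all shared regions this held for 71.3%. The called regions were picked for large shifts of −log10 q. Fold enrichment comes from the same peaks and is not an independent measurement.

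Promoter letters were compared for the annotated starts in called regions, 20 higher and 10 lower, with those of all 21044 promoters of the table (300 bases each, both strands searched). Shares are given beside those of the 10419 promoters in shared regions. The GC box GGGCGG was in 14 of 20 higher and 8 of 10 lower promoters, beside 69.6% of those in shared regions and 46.7% of all. The CTCF core AGGNGGC was in 11 of 20 and 3 of 10, beside 42.2% and 33.8%, and CCAAT in 4 of 20 and 5 of 10, beside 38.6% and 38.5%. A PU.1 motif, GAGGAAG, was in 3 of 20 and 2 of 10, beside 13.3%. A MEIS motif, TGACAG, was in 3 of 20 and none of 10, beside 16.3%, and a HOX-PBX motif, TGATNNAT, in none of either, beside 3.0%. The RUNX motif TGTGGT was in 4 of 20 and none of 10, beside 11.8%. The GATA motif AGATAA was in none of 20 and 2 of 10, beside 5.1%. The E-box CACGTG was in 2 of 20 and 1 of 10, beside 11.0%. A C/EBP motif, TTGCNNAA, was in 2 of 20 and none of 10, beside 7.6%. The AP-1 motif TGANTCA was in none of either, beside 4.1%. With so few promoters these shares are a description, and no difference was tested. In the printed windows, capitals mark the GC box in all 5, the PU.1 match of Mmp25 at the end nearest the start, the CTCF core match of Luzp1, the GATA match of Fam124a and the CCAAT box of Spata17.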

How the data were processed

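ATAC-seq peak lists of 6 libraries were used (3 FL, 3 KO); the 2 4S-A lists entered only the merging of peaks. The tools named per the submitters' processing notes were Bowtie2 2.2.9, MACS2, Trim Galore 0.4.4, featureCounts and Picard, on mm10; their roles and parameters are not given in the sources used here. The authors deposited 1 narrowPeak list per library, with a score (10 times the −log10 q, truncated), a fold enrichment (a ratio at the summit), the −log10 p and the −log10 q of each peak. None is scaled between libraries, read depth is unknown, and no counts were used, so values served only as ranks.

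Peaks of the 8 lists on chromosomes 1 to 19 and X that shared at least 1 bp were merged, and a region took the highest peak of a list. Each region was given the closest protein-coding gene, up to 100 kb away, in RefSeq gene spans of GRCm38.p6, which give no exons; 33000 regions (96.2%) were assigned. Of 366 gene list entries 363 matched. Percentile shifts, the calls at 10 points and exact permutations of the labels inside cohorts (6 arrangements, 12 with direction) were computed in Python 3.11.15 (pandas 2.3.3, scipy 1.17.1), and linear fits with limma 3.58.1 in R 4.3.3 (cohort and genotype as terms, variance trend, Benjamini-Hochberg adjustment over all regions or genes, two-sided). Scripts were tested on simulated data, where the linear fit recovered the size of changes but called none of them, and the 10-point rule also called unchanged regions, so neither 0 calls in the fit nor the number called says how many regions differ.

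Named by rule were 12 fixed genes, the 14 highest and 14 lowest regions called on both scales (1 per gene, without predicted genes, and only where a protein-coding gene lies within 100 kb), at most 3 genes from each list in each direction, and the 6 highest and 6 lowest genes by mean; some of them are left out of the text and figures. Other settings changed the value ranked, the list length, the peak and region filters, the size threshold, the fit and the libraries used. The numbers of the replicates deviated together (r = 0.265, 0.195 and 0.523 for numbers 1, 2 and 3), but number 3 is the other cohort, and inside cohort 1 the r of FL 1 minus FL 2 against KO 1 minus KO 2 was 0.033. The members, gene lists and motifs were chosen with earlier results of these data known.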

Additional observations from a re-analysis of the deposited data

Results flagged for a closer look

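The Mid1 region on the X chromosome (169986569 to 169987906, inside Mid1, a ubiquitin ligase gene) was the only region whose shift differed between the cohorts in the limma interaction fit over 34313 regions (0.00291% called), with cohort 2 minus cohort 1 at −58.75 points (SE 5.4, adjusted p = 0.00973). It stood at list percentiles of 86.0 and 90.4 in FL 1 and FL 2 against 98.8 and 97.7 in KO 1 and KO 2, 97.9 in FL 3 and 49.3 in KO 3, so KO 3 alone was low. The shift was higher in cohort 1 (10.1) and lower in cohort 2 (−48.6), where it rests on 1 library a genotype, assumed to vary like cohort 1. Without a trend of variance with level no region passed.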

How the results depend on the processing

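The same-sign share stayed between 46.4% and 47.5% under every alternative that gives one; without FL 3 or KO 3 cohort 2 has no shift and there is no value. Calls at 10 points moved more. With percentiles among shared regions 708 were lower and with equal-length lists 649; the cause was not tested. Where peaks had to cover at least 50% of a region, 235 were higher and 74 lower, of fewer regions. At 5 points 1816 were higher and 403 lower, and at 20 points 107 and 34. Leaving out each library of cohort 1 in turn gave 670 to 1565 higher and 251 to 732 lower, and on both scales, an alternative added after seeing the data, 420 to 548 higher and 125 to 428 lower. The fit over regions gave 0 to 1 and the fit over genes 0 to 65 with each library left out, and 14 genes with normal scores. The largest gene counts, 60 without FL 3 and 65 without KO 3, came from fits whose genotype estimate rests on cohort 1 only. Why the other counts moved was not tested. The difference between cohorts was called in 5 regions among shared regions and 2 with normal scores, and, in alternatives added after seeing the data, in 6 with equal-length lists, 37 with the mean over peaks, 0 with fold enrichment, 0 on autosomes only (Mid1 being on X), 0 without a variance trend, and 2 to 11 with 1 library left out. With the replicate number as a block, 0 regions and 0 genes passed, as without it, so the block changed no call. For named regions, percentiles among shared regions moved 38 of 80 shifts and fold enrichment 22 of 80 by more than the spread between replicates. None of the named regions that were called changed direction, which the call itself requires for percentiles among shared regions. Of all 413 called regions, fold enrichment turned the direction in cohort 2 near Zfp330, Mamdc2 and Tspoap1.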

Other observations

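On the X chromosome the 599 shared regions had a median shift of 2.3 points in cohort 2 and −0.66 in cohort 1 among shared regions, while the autosomes ranged from −0.55 to 0.33 in cohort 2 and from −0.69 to 0.32 in cohort 1. Of these X regions 3 (0.501%) were called higher and 1 (0.167%) lower, beside 0.871% and 0.332% of all shared regions.

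On the scale of shared regions the limma interaction fit called 4 regions beside Mid1, each with an adjusted p of 0.0215. The region at the start of Tdrkh, a gene of the piRNA pathway (chromosome 3, 94412584 to 94413625), was low only in the controls of cohort 1, at list percentiles of 37.3 and 34.4 in FL 1 and FL 2, beside 97.5 and 98.7 in KO 1 and KO 2, 99.3 in FL 3 and 97.7 in KO 3. Near Mcrs1, a chromatin complex subunit gene (chromosome 15, 99259206 to 99260656), FL 3 was low at 76.7, with 92.2 in KO 3 and 99.1 to 99.95 in cohort 1. At Garem1 (chromosome 18, 21299634 to 21300865) KO 3 was low at 79.4, beside 96.0 in FL 3 and 89.1 to 99.3 in cohort 1. The remaining one, on chromosome 12 (29290729 to 29291455) and beyond 100 kb from any gene of the table, had 98.3 and 98.4 in FL 1 and FL 2 against 89.3 and 90.4 in KO 1 and KO 2, 89.8 in FL 3 and 97.3 in KO 3. In these data the cohort 2 values are 1 library a genotype, and none of these regions had shifts of the same sign in both cohorts except Mcrs1, whose shift in cohort 1 was 0.25.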
